A study of Mus musculus with 2 samples.

Results

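The proteasome subunit genes were followed through blood-derived leukocytes of the pressure-loaded mouse heart. Their members were the gene symbols that begin with Psma, Psmb, Psmc or Psmd and a digit. This rule gave 38 of 32286 features, after 2 matching symbols were left out by the rule and not analysed here. By role they held 17 core particle genes and 20 regulatory particle genes, 3 of the latter for assembly factors. The remaining member, Psmc3ip, matches by its symbol but encodes a recombination protein and is no proteasome subunit, so it was kept in the sum of all members and out of the group sums. The rule itself uses symbols only.

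The proteasome is the large protease that degrades proteins marked with ubiquitin. Its core particle is a barrel of stacked rings, with alpha subunits that gate the entrance and beta subunits inside, of which Psmb5, Psmb6 and Psmb7 carry the chymotrypsin-like, caspase-like and trypsin-like catalytic sites. Interferon-gamma induces a variant catalytic set, the immunoproteasome, in which Psmb10 takes the place of Psmb7 and which cuts peptides for display on MHC class I molecules. The regulatory particle caps the barrel, binds ubiquitin chains, and unfolds the substrate with the ATPases Psmc1 to Psmc6. Psmd genes encode further subunits of its base and lid, apart from Psmd5, Psmd9 and Psmd10, which encode factors for its assembly. Macrophages of the heart take up and clear debris and display peptides, and carry both forms.

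The study compared 2 groups of mice that carried transplanted bone marrow (BMT), control marrow or marrow with LOY (loss of the Y chromosome), the genotype given in the labels. All mice of both groups had the treatment TAC (transverse aortic constriction, in which a narrowed aorta puts the left ventricle under pressure). Viable CD45+ RFP+ cells of the left ventricle, by the labels the leukocytes that derive from the transplant, were sorted from 3 mice per group and pooled into 1 library for droplet 3' RNA sequencing. The sources used here do not give strain, age, the time after surgery or the way in which the Y chromosome was lost. Because each group is 1 library of pooled mice, the differences below carry no replicate error and no p-value, and none was tested. Every interval is at 95% and covers counting error only. Paired values give the control library first and the LOY library next.

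The control library held 7276 barcodes and 42640861 UMIs (molecular barcodes that count transcripts), and the LOY library 5475 barcodes and 18710715 UMIs. After filtering, 6909 control and 5177 LOY cells were kept, with medians of 5214 and 3006 UMIs per cell, and 29 kept barcodes occurred in both libraries. Ptprc, the gene of CD45, had 550 and 531 CPM (the UMIs of a gene scaled by the total of the same cells), and 4 Y-linked genes together had 124 and 14.3 CPM. No UMI was assigned to the RFP sequence that the feature list also holds (0 and 0). The cells fell into 23 clusters, named from marker genes where those allowed. The macrophage-like class (4652 and 3512 cells) joined 10 clusters, called here by their leading gene. The libraries filled them unequally: the Egr1 (1197 and 74 cells) and Slc40a1 (422 and 16) clusters were mostly control cells, and the Spp1 cluster (23 and 1512) was nearly all LOY cells, so that these clusters may stand for a library and not for a cell state. The 9 cell groups compared do not overlap and had at least 100 cells in each library. They were the Lyve1, H2-Eb1, Ifit2 (interferon genes) and Hist1h1b (cycling) clusters of macrophage-like cells, the numbered cluster 0 (led by Cd209a) and cluster 1 (led by Ly6c2, 104 and 732 cells), and monocyte-like, neutrophil-like and B cell-like cells.

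The promoters of the catalytic genes Psmb5, Psmb6 and Psmb7 and of Psmb10 were chosen for display, and those of Psmb5 and Psmb6 are shown. Psmb7 had no entry. The Psmb10 entry lay at the far upstream start of its longest transcript and was left out. Psmb5 and Psmb6 were among the members with the highest ratios of LOY to control. Each sequence is the 250 bases before the RefSeq transcription start (build GRCm38.p6, the same build as mm10), written 5' to 3' on the gene's strand, from chr14:54617996-54618245 (minus strand) for Psmb5 and chr11:70525107-70525356 (plus strand) for Psmb6. Capitals mark the match to TGACNNNGC, the core of the antioxidant response element, to which the proteasome gene activator Nfe2l1 is known to bind.
Psmb5: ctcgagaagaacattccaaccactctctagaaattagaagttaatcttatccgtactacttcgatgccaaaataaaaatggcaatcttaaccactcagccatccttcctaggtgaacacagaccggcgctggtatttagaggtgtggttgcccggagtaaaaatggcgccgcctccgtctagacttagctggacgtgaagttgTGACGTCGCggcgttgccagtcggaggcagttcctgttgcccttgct
Psmb6: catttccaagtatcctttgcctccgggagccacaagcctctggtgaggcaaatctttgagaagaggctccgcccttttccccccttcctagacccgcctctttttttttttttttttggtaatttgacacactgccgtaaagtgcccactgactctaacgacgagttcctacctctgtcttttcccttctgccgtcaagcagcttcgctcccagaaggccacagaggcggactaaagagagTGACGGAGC
The match began 47 bases before the start in Psmb5 and 9 bases before it in Psmb6. On either strand, and in windows that also held the 50 bases after the start, TGACNNNGC occurred in 12.4% of 32851 promoters and in 15.2% of 33 windows of 31 members with an entry. The variant TGAGNNNGC occurred in 17.6% of promoters and 39.4% of member windows, and CCAAT in 37.4% and 39.4%. Members with TGACNNNGC were Psmb5, Psmb6, Psmc6, Psmd12 and Psmd9, which had ratios on both sides of 1 in macrophage-like cells. A match is a description of these letters and not a binding site.

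Proteasome transcripts made up 0.464% of all UMIs in the kept control cells (191887 UMIs) and 0.532% in the LOY cells (92828 UMIs), with a median of 22 and 15 member UMIs per cell. Of the 38 members, 35 reached 10 CPM in at least 1 library in macrophage-like cells. The 3 below this were Psma8, a testis form of an alpha subunit (27 and 20 UMIs there), Psmb11, a catalytic subunit of the thymic cortex, and Psmc3ip (174 and 106 UMIs). Psmb11 had 1 UMI in all kept control cells and 0 of 17442593 in the LOY cells, which allows a level of up to 0.172 CPM. Psmc3ip passed 10 CPM in the cycling Hist1h1b cluster, at 26.1 and 18.8 CPM. The cells thus held the broadly expressed core and regulatory genes and next to none of the tissue-restricted core forms.

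**Figure D1:**
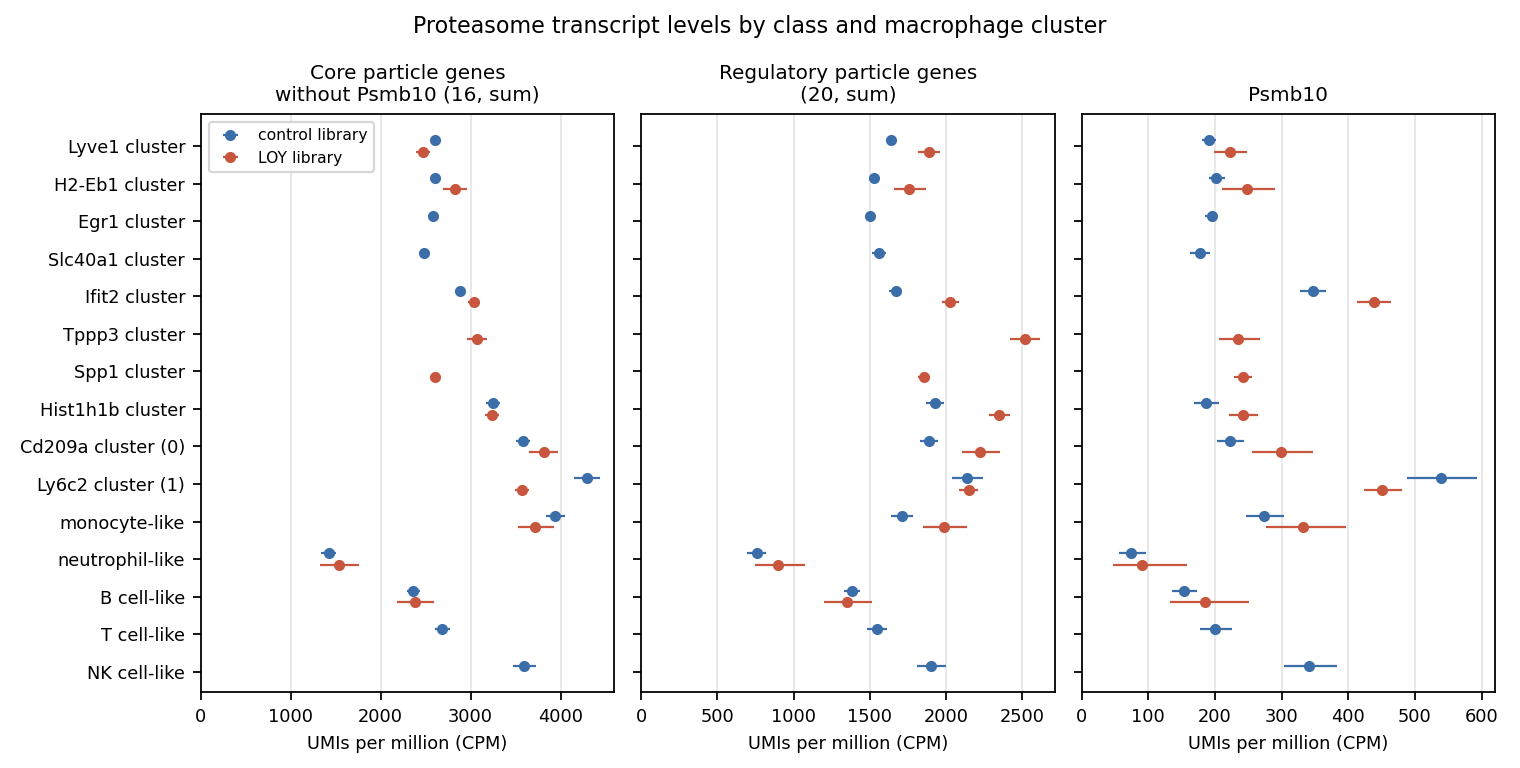
Summed CPM of 16 core particle genes without Psmb10 (left), of 20 regulatory particle genes (middle) and CPM of Psmb10 (right), for each class or cluster with at least 100 cells in that library. Points are 1 library each, with exact 95% Poisson intervals for counting error only. Neutrophil-like cells have the lowest value in every panel, and the Ly6c2 cluster has the highest Psmb10 level in both libraries.

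Across cell groups with at least 100 cells in the library, neutrophil-like cells had the lowest proteasome level in both libraries. Cluster 0, cluster 1 and monocyte-like cells were among the highest, as were NK cell-like cells in the control library (5848 CPM). In the LOY library the 48 NK cell-like cells fell short of this limit and had 6486 CPM (6006 to 6995 CPM). Over 13 cell groups of the control library, the sum of all members ran from 2254 CPM in neutrophil-like cells, through a median of 4437 CPM, to 6971 CPM in cluster 1. Over 11 groups of the LOY library it ran from 2523 CPM in neutrophil-like cells, through a median of 5505 CPM, to 6341 CPM in cluster 0. The highest level was 3.09 times the lowest in the control and 2.51 times in the LOY library. These cell groups come from the same 2 libraries and differ in depth, with medians of 2038 and 830 UMIs per neutrophil-like cell and 10084 and 4838 per cell of the Hist1h1b cluster. Of the macrophage-like clusters, the cycling Hist1h1b cluster had 5384 and 5844 CPM, and the Lyve1 cluster of resident-type macrophages 4437 and 4586 CPM. The H2-Eb1 cluster, led by MHC class II genes, had 4341 and 4843 CPM. The Egr1 cluster had 4284 CPM in the control, and the Spp1 cluster, led by the secreted protein osteopontin, 4703 CPM in the LOY library.

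Between cell groups of the control library, Psmb10 had a wider range than the constitutive catalytic genes. Its level was 74.9 CPM in neutrophil-like cells, 154 in B cell-like cells, 191 in the Lyve1 cluster, 342 in NK cell-like cells, 347 in the Ifit2 cluster and 539 in cluster 1, a range of 7.19-fold. In the LOY library, over groups with at least 100 cells there, its level was lowest in neutrophil-like cells at 90.7 CPM. It was highest in cluster 1 at 451 CPM, followed by the Ifit2 cluster at 438 CPM. NK cell-like cells, left out of this ranking with 48 LOY cells, had a higher level of 665 CPM (517 to 842 CPM). The Poisson intervals of cluster 1 (424 to 480 CPM) and of the Ifit2 cluster (413 to 465 CPM) overlapped in the LOY library, whereas in the control library cluster 1 (488 to 593 CPM) lay above the Ifit2 cluster (328 to 367 CPM). Both groups also carried the interferon genes: the summed level of 14 of them was 7136 CPM in cluster 1 and 7184 CPM in the Ifit2 cluster of the control library. Across cell groups the Spearman correlation of Psmb10 with the interferon sum was 0.379 over 13 control groups and 0.482 over 11 LOY groups. For the sum of all members it was 0.456 and 0.3, so a positive value was not particular to Psmb10. The groups share library and depth, so these values are a description. By comparison, Psmb7 ran from 49.96 CPM in neutrophil-like cells to 122 CPM in cluster 1 of the control library, a range of 2.45-fold, Psmb5 had a range of 2.97-fold and Psmb6 of 5.30-fold. In the LOY library the range of Psmb10 was 4.98-fold and that of Psmb7 5.76-fold, the latter from 2 UMIs in neutrophil-like cells.

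The other wide ranges rested on few neutrophil transcripts. Psmd9, an assembly chaperone of the regulatory particle, ran from 6.57 CPM in neutrophil-like to 52.8 CPM in NK cell-like cells of the control library. Psmd2, a base scaffold subunit, ran from 17.1 CPM in neutrophil-like cells to 102 CPM in cluster 1. In the LOY library, Psmc1 and Psmd1 each had 1 UMI in 125 neutrophil-like cells, and their highest levels were 156 and 96.1 CPM in the Tppp3 cluster. At the narrow end, the ubiquitin receptor Psmd4 ran from 106 CPM to 192 CPM over the same control groups.

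In macrophage-like cells the summed proteasome level was 4504 and 5126 CPM, a ratio of 1.14 (interval 1.13 to 1.15). The sums of the regulatory particle genes and of the constitutive catalytic genes were higher in the LOY library, whereas the alpha sum was slightly lower. The 20 regulatory genes summed to 1603 and 2012 CPM (ratio 1.26, 1.24 to 1.27), and the 16 core genes without Psmb10 to 2683 and 2826 CPM (1.05, 1.04 to 1.07). Within the core, the 7 alpha genes had 1428 and 1344 CPM (0.942, 0.925 to 0.958), against 448 and 647 CPM for the 3 constitutive catalytic genes (1.44, 1.40 to 1.48). In the regulatory particle, the 6 ATPase genes had a ratio of 1.22, the 11 other subunits 1.30, and the 3 assembly factors 0.956, an interval (0.891 to 1.03) that holds 1. The clusters that held most of these cells were only partly the same (Egr1, H2-Eb1, Lyve1, Ifit2 and Slc40a1 in the control, and Spp1, Ifit2, Hist1h1b, Lyve1, H2-Eb1 and Tppp3 in the LOY library). The 4 clusters with at least 100 cells in each library held 60.2% of the control and 46.3% of the LOY macrophage-like cells. In the Lyve1 cluster alone the ratio of all members was 1.03 (1.01 to 1.06).

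Of the 35 measured members, 4 were at least 1.5-fold higher in LOY macrophage-like cells on the scale log2((LOY CPM + 10)/(control CPM + 10)), and 0 were 1.5-fold lower. Of all 7852 genes measured there, 6.58% were as much higher and 7.93% as much lower. The members' median log2 ratio was 0.08 and their range -0.52 to 0.71, beside a median of -0.01 for all genes. Above 0 stood 23 members, where 48.6% of all genes did, and below 0 stood 12, against 51.4%. Counting intervals of the plain ratio were above 1 for 17 members (35.3% of all genes) and below 1 for 8 (38.1%). The members were thus spread on both sides with no common fold. Among the 9 separate groups, 1 was 1.5-fold higher and 1 lower in the Lyve1 cluster (5.31% and 8.64% of genes), 3 and 2 in the H2-Eb1 cluster (7.66% and 10.3%), 5 and 0 in the Ifit2 cluster (6.90% and 9.51%), 1 and 2 in the Hist1h1b cluster (6.38% and 10.7%), and 0 and 3 in cluster 1 (8.17% and 13.8%). In cluster 0 the counts were 1 and 1 (9.32% and 18.2%), in monocyte-like cells 5 and 6 (9.58% and 16.1%), in neutrophil-like cells 6 and 5 (17.0% and 24.6%), and in B cell-like cells 3 and 8 (8.60% and 23.7%).

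**Figure D2:**
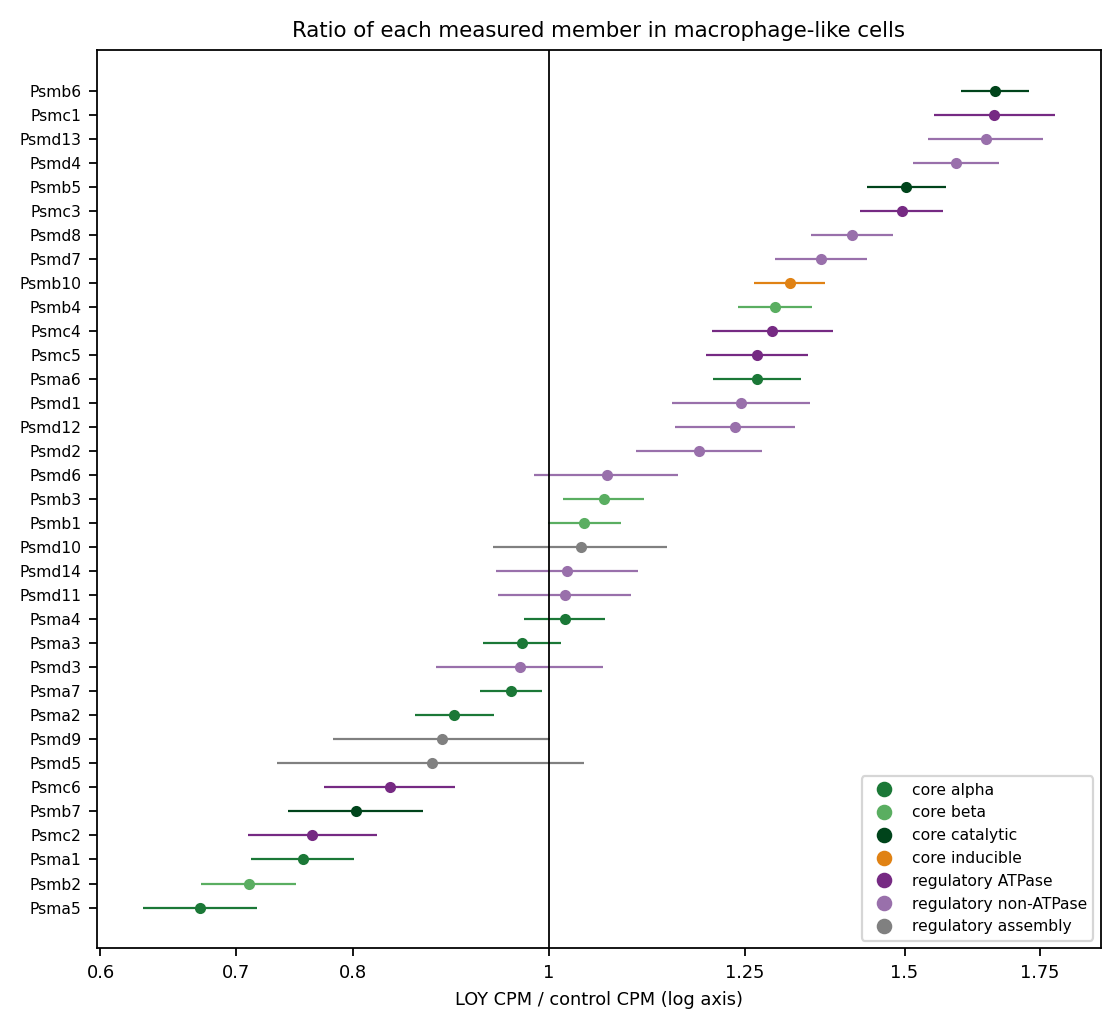
Ratio of LOY to control CPM (log axis) of the 35 members measured in macrophage-like cells, coloured by role, with exact 95% conditional intervals for counting error only. Psmb6 (1.66), Psmc1 (1.66) and Psmd13 (1.65) are highest, and Psma5 (0.672), Psmb2 (0.710) and Psma1 (0.755) lowest. Alpha subunits lie mostly at or below 1 and regulatory subunits mostly above it.

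Among the catalytic genes, Psmb6 (ENSMUSG00000018286, chromosome 11, 70525367 to 70527858) had 203 and 337 CPM (ratio 1.66, 1.60 to 1.73). Psmb5 (ENSMUSG00000022193, chromosome 14, 54614119 to 54618022) had 161 and 242 CPM (1.503, 1.44 to 1.57). Psmb7 (ENSMUSG00000026750, chromosome 2, 38588036 to 38644087) went the other way, with 84.4 and 67.8 CPM (0.802, 0.743 to 0.866). The inducible Psmb10 (ENSMUSG00000031897, chromosome 8, 105935735 to 105938444), whose product takes the place of that of Psmb7, had 213 and 280 CPM (1.32, 1.26 to 1.37). The transcripts of the paired subunits Psmb7 and Psmb10 therefore differed between the libraries in opposite directions.

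Of the 7 alpha genes, which form the outer rings, intervals were below 1 for 4 and above 1 for 1. Psma5 (ENSMUSG00000068749, chromosome 3, 108256926 to 108279974) was the lowest of all members, with 133 and 89.5 CPM (0.672, 0.629 to 0.717), and Psma1 had 152 and 115 CPM (0.755, 0.712 to 0.801). Psma6 was the exception, with 144 and 183 CPM (1.27, 1.21 to 1.33). Of the 4 beta subunits without a catalytic site, Psmb2 was lower, at 183 and 130 CPM (0.710, 0.673 to 0.750), and Psmb4 higher, at 198 and 256 CPM (1.29, 1.24 to 1.35). Neither ring of the core differed as a unit.

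The ATPase ring of the regulatory particle was split as well, with 4 intervals above 1 and 2 below. Psmc1 had 63.7 and 106 CPM (1.66, 1.55 to 1.78), but its ratio was 1.39 with each cell thinned to 1000 UMIs, 1.245 in the Lyve1 cluster alone and 1.39 as the mean of the 4 shared clusters. Psmc3 had 146 and 218 CPM (1.495, 1.43 to 1.57). Psmc2 had 95.7 and 73.1 CPM (0.764, 0.709 to 0.822), and Psmc6 87.1 and 72.6 CPM (0.834, 0.774 to 0.899). In the macrophage-like class the 11 base and lid subunits outside the ATPase ring leaned one way. Their intervals were above 1 for 7, below 1 for 0 and held 1 for 4 (35.3% of all genes were above and 38.1% below). Over the 9 separate groups these subunits were mixed. Psmd4 and Psmd13 had log2 ratios above 0 in all 9, whereas Psmd14 was below 0 in all 9 and Psmd6 in 7. The lid subunit Psmd13 had 71.7 and 118 CPM (1.65, 1.54 to 1.76), a ratio of 1.49 after thinning and of 1.37 in the Lyve1 cluster. Psmd4 had 130 and 207 CPM (1.59, 1.51 to 1.67). Psmd14, the deubiquitinase of the lid, had 64.1 and 65.5 CPM (1.02, 0.942 to 1.11), while its partner Psmd7 had 127 and 173 CPM (1.36, 1.29 to 1.44).

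**Figure D3:**
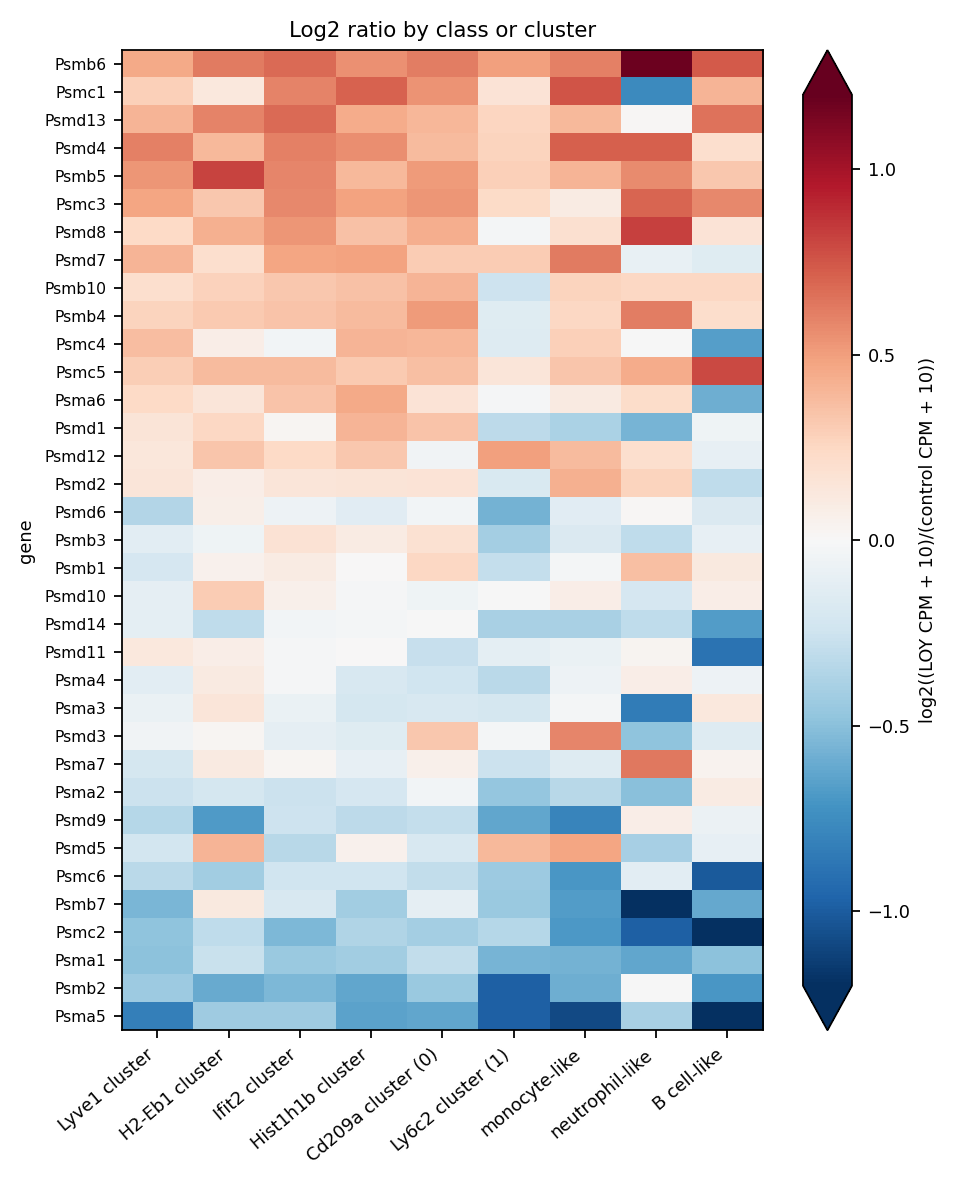
Log2 ratio of LOY to control, with 10 CPM added to each, of the 35 members (rows, ordered by their ratio in macrophage-like cells) in the 9 classes and clusters without overlap. Psmb6 is above 0 in all 9 columns and Psma5 below 0 in all 9. The neutrophil-like and B cell-like columns rest on the fewest UMIs.

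Several subunits differed the same way in 5 or more of the 9 separate cell groups, all of which share the same 2 libraries, and others in fewer. The interval of the ratio was above 1 for Psmb6 in 9 of 9 groups, for Psmd4 in 8 and for Psmb5 in 7. Among the 4973 genes measured in all 9 groups, 1.49% were higher in 9, 2.92% in 8 or more and 4.75% in 7 or more. It was below 1 for Psma5 in 8 groups, where 4.10% of genes were lower in 8 or more, and for Psmb2 in 7, where 6.66% were. Psma6, Psmc4 and Psmd12, whose intervals were above 1 in the macrophage-like class, were above 1 in 3 groups each, Psmd1 in 1 and Psmd2 in 0, and Psmb7 and Psmc6 were below 1 in 4 each. Of the 34 members measured in all 9 groups, 11 were higher in 5 or more groups (10.4% of genes) and 5 lower in 5 or more (14.1% of genes). Intervals lay only above 1 for 14 of these 34 members (30.8% of genes), only below 1 for 12 (41.5%), on both sides for 4 (7.70%) and on neither for 4 (20.0%).

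Psmb6 had 176 and 245 CPM in the Lyve1 cluster (1.39, 1.24 to 1.57), 196 and 307 CPM in the H2-Eb1 cluster (1.57, 1.34 to 1.83), and 222 and 362 CPM in the Ifit2 cluster (1.63, 1.48 to 1.79). It had 255 and 363 CPM in cluster 1 (1.42, 1.22 to 1.67) and 160 and 273 CPM in B cell-like cells (1.70, 1.26 to 2.26). The difference was thus seen in B cell-like as well as myeloid cells. In NK cell-like cells, with 48 LOY cells, Psmb6 had 212 and 34 UMIs. Its ratio there was 1.32, with an interval (0.888 to 1.90) that held 1. Psma5 had 125 and 66.2 CPM in the Lyve1 cluster (0.531, 0.425 to 0.656), 226 and 109 CPM in cluster 1 (0.485, 0.398 to 0.593) and 170 and 75.1 CPM in monocyte-like cells (0.441, 0.287 to 0.655). In neutrophil-like cells it had 40 and 5 UMIs, and the interval of the ratio (0.221 to 1.82) held 1.

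Psma5 was the lowest member of at least 50 CPM in 5 of the 9 groups, Psmb2 in 2, and Psma3 and Psmc2 in 1 each. Psmb2 had a ratio of 0.636 (0.483 to 0.823) in the H2-Eb1 cluster and 0.672 (0.590 to 0.763) in the Ifit2 cluster. In B cell-like cells Psmc2 had 116 and 4 UMIs (0.296, 0.0792 to 0.777), and in neutrophil-like cells Psma3 had 119 and 11 UMIs (0.531, 0.258 to 0.985). The highest member was Psmb6 in 3 groups, Psmc1 in 2, and Psmb5, Psmc5, Psmd12 and Psmd4 in 1 each. Psmc1 had 82.7 and 141 CPM in the Hist1h1b cluster (1.71, 1.41 to 2.08) and Psmb5 148 and 267 CPM in the H2-Eb1 cluster (1.80, 1.52 to 2.13). Psmd4 led the Lyve1 cluster with 126 and 197 CPM (1.56, 1.36 to 1.78), Psmd12, a lid subunit, cluster 1 with 76.0 and 111 CPM (1.46, 1.10 to 1.98), and the ATPase Psmc5 the B cell-like cells with 73.3 and 134 CPM (1.83, 1.18 to 2.75).

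By group of subunits, the sum of the constitutive catalytic genes was higher in the LOY library in all 9 cell groups, with ratios from 1.21 in cluster 1 to 1.56 in the H2-Eb1 cluster and every interval above 1. This sum was carried by Psmb5 and Psmb6, since the log2 ratio of Psmb7 was below 0 in 8 of the 9 groups. The alpha sum had ratios from 0.778 in cluster 1 to 0.992 in the H2-Eb1 cluster, with the interval below 1 in 6 groups and holding 1 in 3. The regulatory sum had ratios from 0.976 in B cell-like cells to 1.22 in the Hist1h1b cluster, with 6 intervals above 1 and 3 holding 1. The 3 assembly factors had intervals that held 1 in all 9. Cluster 1 stood apart by its total: all members summed to 6971 and 6169 CPM (0.885, 0.857 to 0.913), and the core without Psmb10 to 4292 and 3567 CPM (0.831, 0.798 to 0.866). In cluster 1 Psmb10 was also lower, at 539 and 451 CPM (0.838, 0.746 to 0.941), and the interferon sum was 7136 and 5218 CPM. This control value rests on 104 cells.

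**Figure D4:**
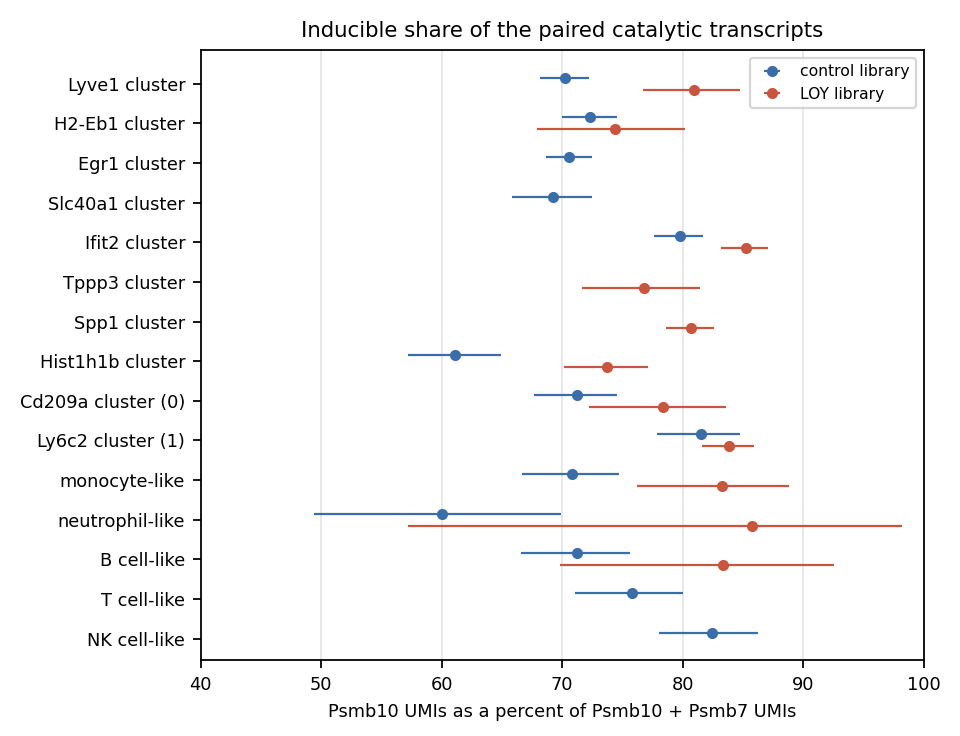
Psmb10 UMIs as a percent of Psmb10 plus Psmb7 UMIs, for each class or cluster with at least 100 cells in that library, with exact Clopper-Pearson 95% intervals. The LOY value is the higher in all 9 groups that have both libraries, and the intervals are apart in 4 of them.

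Psmb10 was set against Psmb7, the subunit it replaces, by the share of their pooled UMIs, which does not depend on the CPM total. The share can still follow the GC content of the 2 transcripts, 56.5% for Psmb10 and 48.7% for Psmb7. In macrophage-like cells the median log2 ratio of all genes of like GC content was 0.11 and -0.04. The share was not adjusted for this. UMIs near the 3' end do not measure the ratio of the proteins. In macrophage-like cells the share was 71.6% (70.6% to 72.5%) in the control and 80.5% (79.3% to 81.6%) in the LOY library, 8.93 percentage points higher. Of the 9 cell groups the share was higher in the LOY library in 9, with intervals apart in 4. It was 70.2% and 81.0% in the Lyve1 cluster, 79.7% and 85.2% in the Ifit2 cluster, and 61.1% and 73.7% in the Hist1h1b cluster. In monocyte-like cells it was 70.8% and 83.2%. The difference was small in the H2-Eb1 cluster (72.3% and 74.4%) and in cluster 1 (81.5% and 83.8%), where the intervals overlapped. In neutrophil-like cells, 57 and 12 Psmb10 UMIs gave 60.0% and 85.7%, with wide overlapping intervals.

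At equal depth a larger share of LOY macrophage-like cells had a Psmb10 UMI in the class as a whole, but not in each of its clusters. After each macrophage-like cell was thinned to 1000 UMIs (4620 control and 3441 LOY cells, with 32 and 71 shallower cells left out), 18.8% (17.7% to 19.9%) of control and 24.5% (23.1% to 26.0%) of LOY cells had a Psmb10 UMI. Without thinning the shares were 66.8% and 57.1%, in the order of the depths. The thinned shares were 29.8% and 39.1% in the Ifit2 cluster (25.8% to 34.0% and 35.2% to 43.1%). They were 17.2% and 20.8% in the H2-Eb1 cluster, 18.4% and 19.3% in the Lyve1 cluster and 20.8% and 20.5% in the Hist1h1b cluster, with overlapping intervals. In cluster 1, which is outside the class, they were 45.1% and 35.5%, with overlapping intervals. Psmb7 was seen in 7.23% (6.50% to 8.01%) and 6.42% (5.63% to 7.29%) of thinned cells, overlapping intervals. Thinned neutrophil-like cells, the group with the lowest Psmb10 level, had a Psmb10 UMI in 5.44% of 294 control cells. No cell type is known to lack these genes, so that a share from free RNA could not be set.

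A list of 16 genes that work with the proteasome held activators and assembly factors, the deubiquitinases Usp14 and Uchl5, and Adrm1 and Sem1, which are regulatory particle subunits that the symbol rule does not take. In macrophage-like cells, on the scale with 10 CPM added, 0 of the 16 were 1.5-fold higher and 0 lower. By the plain ratio, Adrm1 and Psmg1 (17.3 and 9.83 CPM, 0.569, 0.466 to 0.691) were more than 1.5-fold lower. The highest plain ratio was that of Psmf1, at 1.45. The summed ratio of the 16 was 0.949 (0.934 to 0.965). Without Adrm1, Sem1, Usp14 and Uchl5 the other 12 had 1249 and 1211 CPM (0.970, 0.952 to 0.988), a sum chosen after the values were seen. Sem1 had 333 and 281 CPM (0.845, 0.814 to 0.878). Psme1 and Psme2, which form the interferon-inducible activator ring, had 334 and 372 CPM (1.11, 1.07 to 1.15) and 184 and 156 CPM (0.845, 0.803 to 0.889). Pomp, the maturation factor of the core, had 395 and 355 CPM (0.899, 0.869 to 0.930), and Adrm1, a ubiquitin receptor, 29.3 and 17.8 CPM (0.607, 0.523 to 0.701). Nfe2l1, the transcription factor of the proteasome genes, had 58.7 and 55.8 CPM (0.9501, 0.871 to 1.04). The polyubiquitin gene Ubb had 1909 and 761 CPM (0.399, 0.390 to 0.407). Vcp, the ATPase that hands substrates to the proteasome, had 177 and 267 CPM (1.51, 1.44 to 1.57).

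In macrophage-like cells another complex of many subunits, the CCT chaperonin, had all its listed genes above 1 except Cct4. Of 8 CCT chaperonin genes, which fold newly made proteins, 0 were 1.5-fold apart, with a summed ratio of 1.23 (1.21 to 1.26) and a median log2 ratio of 0.39. Cct5 had 153 and 228 CPM (1.49, 1.43 to 1.56) and Tcp1 95.5 and 139 CPM (1.46, 1.38 to 1.55), while Cct4 had 136 and 97.6 CPM (0.716, 0.672 to 0.762). In the same cells the interferon sum had a ratio of 1.40. Its genes lay on both sides of 1: Rsad2 (2.11) and Irf7 (1.84) were higher, and Irf1 (0.632), Gbp2 (0.724) and Igtp (0.799) lower. The proliferation sum had a ratio of 1.89 (10 of 14 genes 1.5-fold higher). Its genes also differed in direction, with Pcna lower (0.790, 0.738 to 0.845) and the interval of Cdk1 holding 1 (0.924, 0.788 to 1.08). The stress gene sum had a ratio of 0.473 (12031 and 5692 CPM, 12 of 14 genes 1.5-fold lower). Of all genes measured in the class, 6.58% were 1.5-fold higher and 7.93% lower. Cardiomyocyte markers summed to 91.6 and 88.9 CPM, but their ratios lay on both sides of 1. Tnnt2 (2.36), Actc1 (1.29) and Ttn (1.11) were above 1, and Myl2 (0.415), Tnni3 (0.402) and Myh6 (0.843) below. Fibroblast markers summed to 5.84 and 4.95 CPM, endothelial markers to 23.0 and 17.9 CPM and erythroid markers, mainly haemoglobin, to 164 and 1.22 CPM. Without the cycling cluster the ratio of all members was 1.13, and with stress, interferon and haemoglobin genes left out of the CPM total it was also 1.13.

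**Figure D5:**
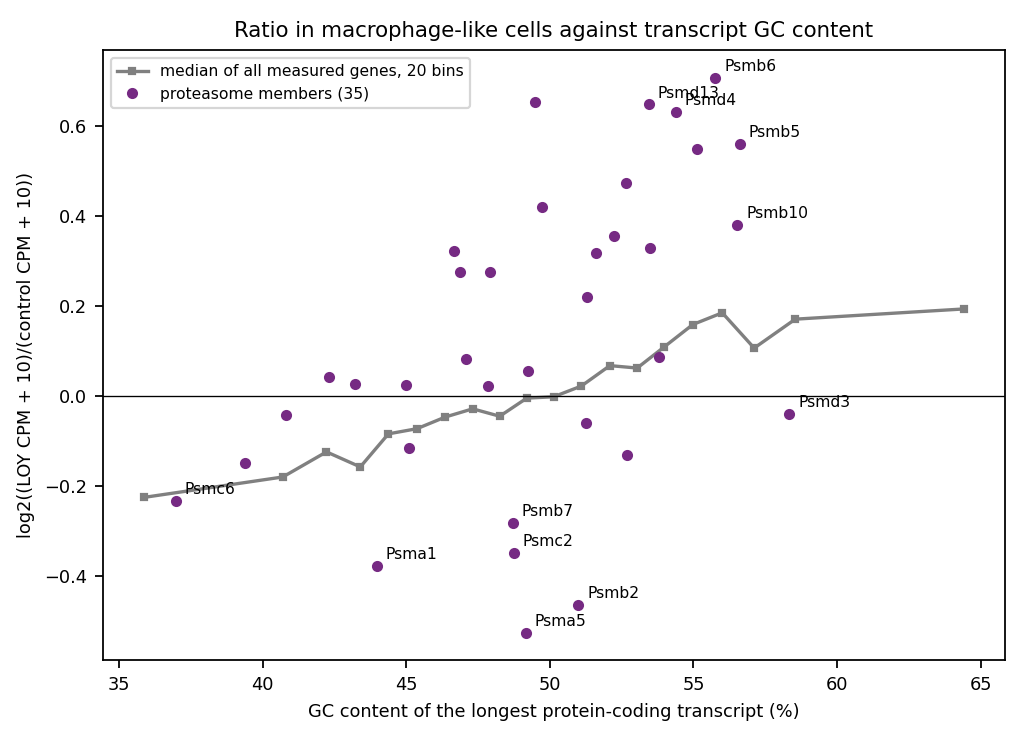
Log2 ratio of LOY to control in macrophage-like cells, with 10 CPM added to each, against the GC content of the longest protein-coding transcript, for the 35 measured members (points) and as medians of all measured genes in 20 bins of GC content (squares and line). Both the line and the members rise with GC content, and Psma5, Psmb2, Psmc2, Psma1 and Psmb7 lie under the line.

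The ratios of the members moved with the base composition of their transcripts. The Spearman correlation of the log2 ratio with GC content was 0.553 over 35 members and 0.296 over 7719 genes in macrophage-like cells, a description over genes that share both libraries. Members above 0 had a median GC content of 51.3% and those below 0 of 48.7%. Psmb6 (55.8%) and Psmb5 (56.6%) were GC-rich, as was Psmb10 (56.5%), while Psmb7 had 48.7%, Psma1 44.0% and Psmc6 37.0%. With each gene set against the median of its GC bin, 2 members were 1.5-fold higher (5.09% of all 7719 genes) and 0 lower (7.75%), the median log2 ratio of the members was 0.17, and Psmb10 had a ratio of 1.22. Against the bin, the log2 ratio of Psmb6 went from 0.71 to 0.52, of Psmd4 from 0.63 to 0.52 and of Psmb5 from 0.56 to 0.45, while that of Psmc1 (0.66) and of Psma5 (-0.52) hardly moved, both being in a bin with a median near 0. The part of GC content in the results was not tested. No pseudogene named after a member was in the feature list, of 4 in the annotation.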

How the data were processed

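Cardiac leukocytes of 2 groups, 1 library each, were profiled with a 10x Genomics 3' kit (about 8000 cells used per library, per the labels' protocols). The deposited matrices hold whole-number UMI counts, not normalized, made with Cell Ranger 5.0.0 on mm10 per the submitters' processing notes. The sources used here give no annotation release, barcode filter or strand setting. Positions are from GENCODE M21, of the same build.

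Barcodes were kept at 500 UMIs and 200 genes or more and 10% mitochondrial UMIs or less. Scrublet scores removed 84 control barcodes (1.15%, automatic threshold) and 240 LOY barcodes (4.38%, the highest scores, since the automatic threshold marked 0). Both libraries were clustered together (scanpy 1.11.5, igraph 0.11.9; 2000 variable genes without proteasome genes, 30 components, 15 neighbours, Leiden resolution 1, seed 0, no batch correction). Names came from marker lists of 18 cell types, where at least 3 markers were found and when the top 10 genes held no more markers of another type. Markers of 9 macrophage states counted as macrophage markers there, a scoring chosen after the clusters were seen. The names are a reconstruction and may not be those of the study.

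UMIs were summed per cell group and library and divided by the total (CPM). Ratios have exact conditional intervals, levels exact Poisson intervals and shares exact Clopper-Pearson intervals. With 1 library per group there is no test. The members and gene lists were chosen with earlier results of these data known. Named are the catalytic genes and Psmb10, the 3 highest and 3 lowest members of at least 50 CPM in macrophage-like cells, the highest and lowest member of each other group, the 3 widest ranges, and members at or under 10 CPM. Psma6, Psmb4, Psmc3, Psmc6 and Psmd14, and the other context genes with values, were named after their values were seen. The calculations were tested on simulated counts. The alternatives are given in the closing section. Promoters are from RefSeq. Psmb7 was not matched there.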

Additional observations from a re-analysis of the deposited data

Results flagged for a closer look

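Cell groups differed in direction between the libraries, with counting intervals on opposite sides of 1, and none of these differences was tested. The ratio of all members was 0.885 (0.857 to 0.913) in cluster 1 and 1.12 (1.10 to 1.15) in the Ifit2 cluster. The core without Psmb10 had a ratio of 0.831 (0.798 to 0.866) in cluster 1 and 1.08 (1.03 to 1.14) in the H2-Eb1 cluster. Psmb10 had a ratio of 0.838 (0.746 to 0.941) in cluster 1 and 1.35 (1.12 to 1.61) in cluster 0. In NK cell-like cells, not among the groups compared because they had 48 LOY cells, its ratio was 1.95 (1.47 to 2.54). Cluster 1 held 104 control and 732 LOY cells.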

How the results depend on the processing

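No paired analysis was possible because each group is 1 library, and the shared replicate number names no pair. In macrophage-like cells the ratio of all members (1.138) stayed above 1 under 16 alternatives, from 1.03 to 1.15. It moved beyond its counting interval with cells of at least 1000 UMIs (1.154), each library clustered on its own (1.152), CPM without mitochondrial and ribosomal-protein genes (1.155), the mean of per-cell CPM (1.126), no cycling clusters (1.126), the Lyve1 cluster alone (1.033), no member with the most UMIs (1.153) and the geometric mean of 4 shared clusters (1.089), an alternative added after seeing the data, as were removal of the GC trend and the CPM total without stress, interferon and haemoglobin genes. The ratio of Psmb10 (1.316) became 1.375 at 5% mitochondrial UMIs, 1.391 at 1000 UMIs, 1.375 at resolution 0.5, 1.381 with each library clustered on its own, 1.161 in the Lyve1 cluster, 1.222 without the GC trend and 1.234 as the mean of the shared clusters. The difference of 8.93 points in its share became 10.7 in the Lyve1 cluster, and was not computed without the GC trend. The count of members 1.5-fold higher (4) became 2 by per-cell means, 1 in the Lyve1 cluster, 1 with 50 CPM added and 2 without the GC trend, and the count lower (0) became 1 in the Lyve1 cluster, where the median log2 ratio turned to -0.046. The cause was not tested. Depth limits the neutrophil-like and B cell-like cells of the LOY library, with 334 and 848 member UMIs.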
